A study of Mus musculus with 12 samples.

Results

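The genes described here are the 5 Morc genes of the mouse (Morc1, Morc2a, Morc2b, Morc3 and Morc4) and Gm5485, a predicted gene beside Morc1, 6 of the 20409 genes counted in ORFtag screens of mouse embryonic stem (mES) cells. The Morc genes were taken as a family by name. Gm5485 and the set as a whole were selected on values of these same screens: insertions at Morc1 were frequent in sorted cells of both the repressor and the PTGR screen, and those at Gm5485 in the PTGR screen. The sorted-against-unsorted values of Morc1 and Gm5485, their exons, strands and shared positions are therefore given as a description with no test, and among these genes p-values are given only for Morc2a and Morc3. Morc2b and Morc4 had too few insertions for one.

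ORFtag uses a retroviral cassette with a promoter, a resistance gene, a tag and a splice donor, which fuses the tag to the exons downstream of the place where it lands. All cells were diploid wild-type mES cells of a clonal reporter line, originally haploid HMSc2 cells, and each screen had its own reporter line. The activator screen recruited TetR-tagged proteins to a 7xTetO-pMYLPF-Puro-IRES-GFP reporter on chromosome 15 and sorted GFP-positive cells. The repressor screen recruited them to pEF1-BFP-7xTetO-pPGK-Puro-IRES-GFP at the same locus and sorted GFP-negative cells. The third screen, for post-transcriptional gene regulation (PTGR), recruited λN-tagged proteins to the mRNA of a randomly integrated Puro-IRES-GFP-10xBoxB reporter, through repeated sorts for low GFP and a last sort for high GFP after the boxB sites were removed with Cre. Each screen had 2 sorted and 2 unsorted libraries, 12 in all, and the methods call the replicates biological. Over all genes, the sorted replicates shared 18.2% and 26.0% of their positions in the repressor screen, 1.76% and 2.26% in the activator screen and 0.546% and 0.591% in the PTGR screen, so the repressor sorted replicates were not fully separate sets of insertions. In all screens the transduced cells were selected with G418 before sorting, and the unsorted cells were taken after this selection. In every library the insertion sites were mapped by inverse PCR. Library depth, counted as insertions at unique positions at most 200 kb before the assigned exon, was 14705 to 60980 in sorted and 54088 to 233799 in unsorted libraries.

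MORC proteins are ATPases of the GHKL superfamily, named after microrchidia, the small testes of mice without Morc1. They carry the ATPase domain near the N terminus, and most have a CW-type zinc finger behind it and a coiled coil towards the C terminus. The ATPase closes into a dimer when it binds ATP, and the family is known for compacting chromatin and silencing transposons and genes. MORC1 acts in male germ cells, where it is needed for the silencing and DNA methylation of retrotransposons. MORC2, the human counterpart of Morc2a, works with the HUSH complex and SETDB1. MORC3 sits in PML nuclear bodies, is modified by SUMO and silences endogenous retroviruses in mES cells. Morc2b is a germ cell gene of rodents, and Morc4 encodes a further member with a CW zinc finger.

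Morc1 lies at chr16:48431237-48630900 (GRCm38, plus strand) and has 27 exons that code for 950 residues in its main transcript. Gm5485 lies 18820 bp before it at chr16:48399453-48412416 on the minus strand, with 4 exons and a short open reading frame of 91 codons, so the pair points away from each other. Morc3 lies at chr16:93832121-93876073 (plus), Morc2a at chr11:3649191-3690477 (plus), Morc2b at chr17:33113351-33139683 (minus) and Morc4 at chrX:139821632-139871677 (minus). An insertion was assigned to the next exon downstream on its own strand, first exons excluded, so each one stands for a fusion that would begin at a given splice acceptor. All 6666 member insertions, in both strand directions, ended exactly at an annotated exon start of GENCODE vM21. Acceptors at which fusions of Morc1, Morc3 and Morc2a would begin follow, with the last 20 intron bases in lower case and the first 10 exon bases in capitals, read 5′ to 3′ on the gene's strand from GRCm38.
Morc1 exon 2, chr16:48437255-48437284, plus: tccctttatttcctcatcagCACAACACAC
Morc1 exon 19, chr16:48586873-48586902, plus: tcttactgtttttaattaagGAAAAATCCA
Morc1 exon 21, chr16:48612269-48612298, plus: atgtagaacttgtttttcagGTTTGGGATC
Morc1 exon 22, chr16:48615675-48615704, plus: ttgtctgtgttcttttgaagACAAACAAGA
Morc1 exon 27, chr16:48630685-48630714, plus: ctgtggcttctctcttccagGGTGGTCCAG
Morc3 exon 2, chr16:93841351-93841380, plus: gaattgttggtttgtttcagCTTTGCCCGA
Morc2a exon 2, chr11:3650288-3650317, plus: atttaccctttactgatcagAATCCTGGGG
Each intron ends in AG, as an acceptor must. Exon 21 of Morc1, which took 1250 sense insertions over the 12 libraries, begins at codon 707, and 244 of the 950 codons (25.7%) lie from there on.

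A gene was called in a screen when its insertions in both sorted libraries, set against a background of all 6 unsorted libraries added up, passed a one-sided Fisher's exact test over all genes (adjusted p below 0.001) and its log2 odds ratio reached 1. In the activator screen 0 of the 6 members were called by Fisher's test, while 4.64% of all genes tested were. None had an unadjusted p below 0.05 there, and edgeR and DESeq2 also called 0. In the repressor screen Morc1 and Morc3 were called, against 8.18% of all genes tested. In the PTGR screen Morc1 and Gm5485 were called, against 0.666% of all genes tested. For Morc1 and Gm5485 these calls are part of why the genes were chosen, and nothing is read from them. In each screen 4 of the 6 members had at least 3 sorted insertions, the minimum for a test. The median log2 odds ratio of all genes tested was -0.14 in the activator, -0.39 in the repressor and 0.14 in the PTGR screen.

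**Figure D1:**
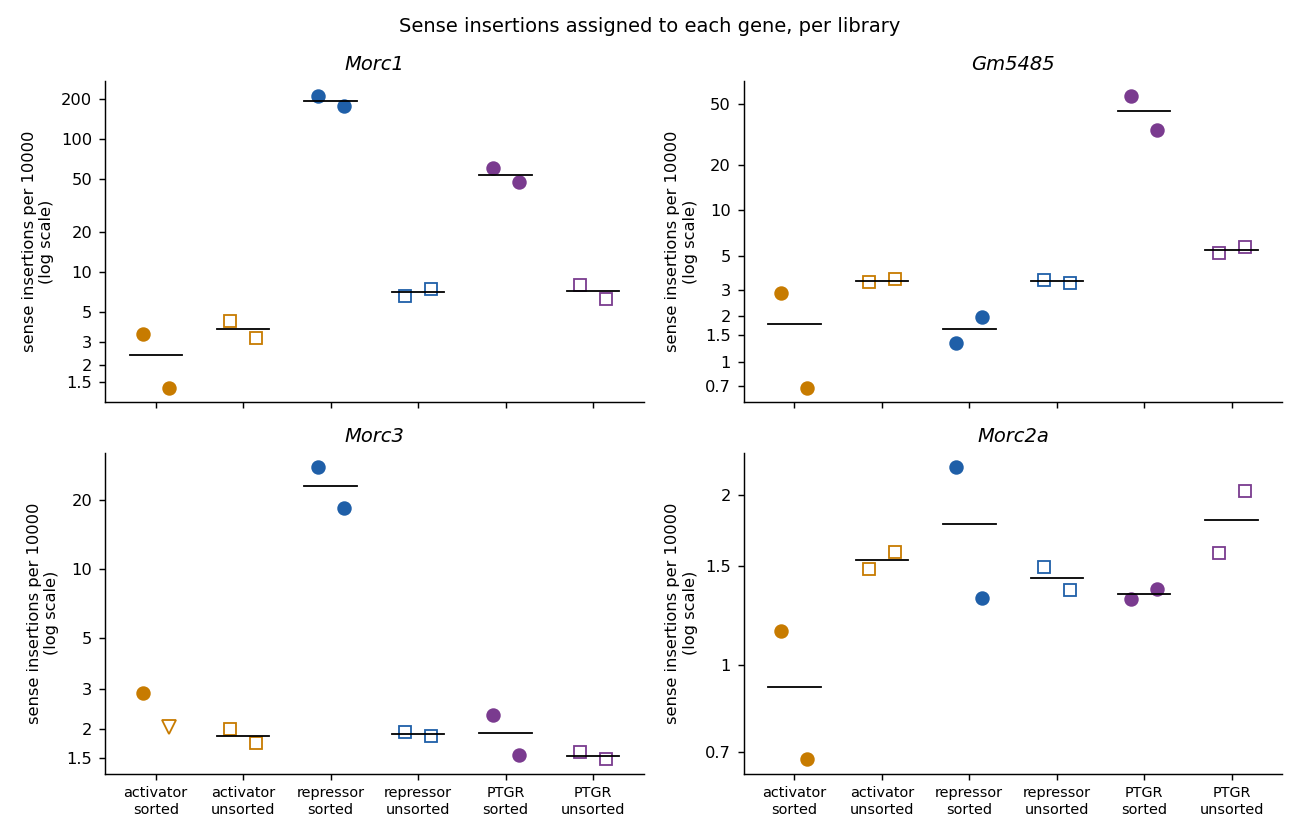
Sense insertions per 10000 insertions of the library (log scale) for Morc1, Gm5485, Morc3 and Morc2a in the 12 libraries; filled circles are sorted and open squares unsorted libraries, black lines the mean of 2 libraries, and the triangle a library with 0 insertions, drawn at the level of 3 counts. Morc1 stands at 211 and 176 in the repressor sorted libraries, and Gm5485 at 56.9 and 33.8 in the PTGR sorted ones.

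Morc1 took far more of the cassette in sorted cells of both the repressor and the PTGR screen than in any unsorted library. It had 469 and 268 sense insertions in the repressor sorted libraries, or 211 and 176 per 10000 (mean 193 ± 24.3, SD, n = 2). In the PTGR sorted libraries it had 370 and 276, or 60.7 and 47.1 per 10000 (53.9 ± 9.58, n = 2). The 6 unsorted libraries lay between 3.18 and 8.04 per 10000 with a median of 6.47, and the activator sorted libraries held 6 and 2 insertions (3.45 and 1.36 per 10000). All 4 sorted libraries of the repressor and PTGR screens thus stood above every unsorted library, and those of the activator screen stood near or below the lowest. The log2 odds ratio against the background was 5.07 ± 0.08 in the repressor screen (counting SE, 5.17 and 4.90 in the replicates), 3.18 ± 0.08 in the PTGR screen (3.35 and 2.98) and -1.27 ± 0.51 in the activator screen.

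In unsorted cells too, which had been through G418 selection, the insertions were not spread evenly over Morc1. In the 4 unsorted libraries of the activator and PTGR screens, 44.9% of the insertions in the direction of the gene lay in intron 20, which makes up 9.85% of its length. A further 25.8% lay in the first 20 kb and 26.1% between exon 21 and the gene's end, while the 141379 bp between them (70.8% of the length) held 3.09%. Insertions in the opposite direction were also rare in the long middle part of the gene in these libraries (2.47%) and frequent in intron 20 (48.5%). They were more frequent in the first 20 kb (35.5%) and less frequent from exon 21 on (13.6%, 10.3 to 17.7) than those in the direction of the gene (26.1%, 21.8 to 30.9).

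**Figure D2:**
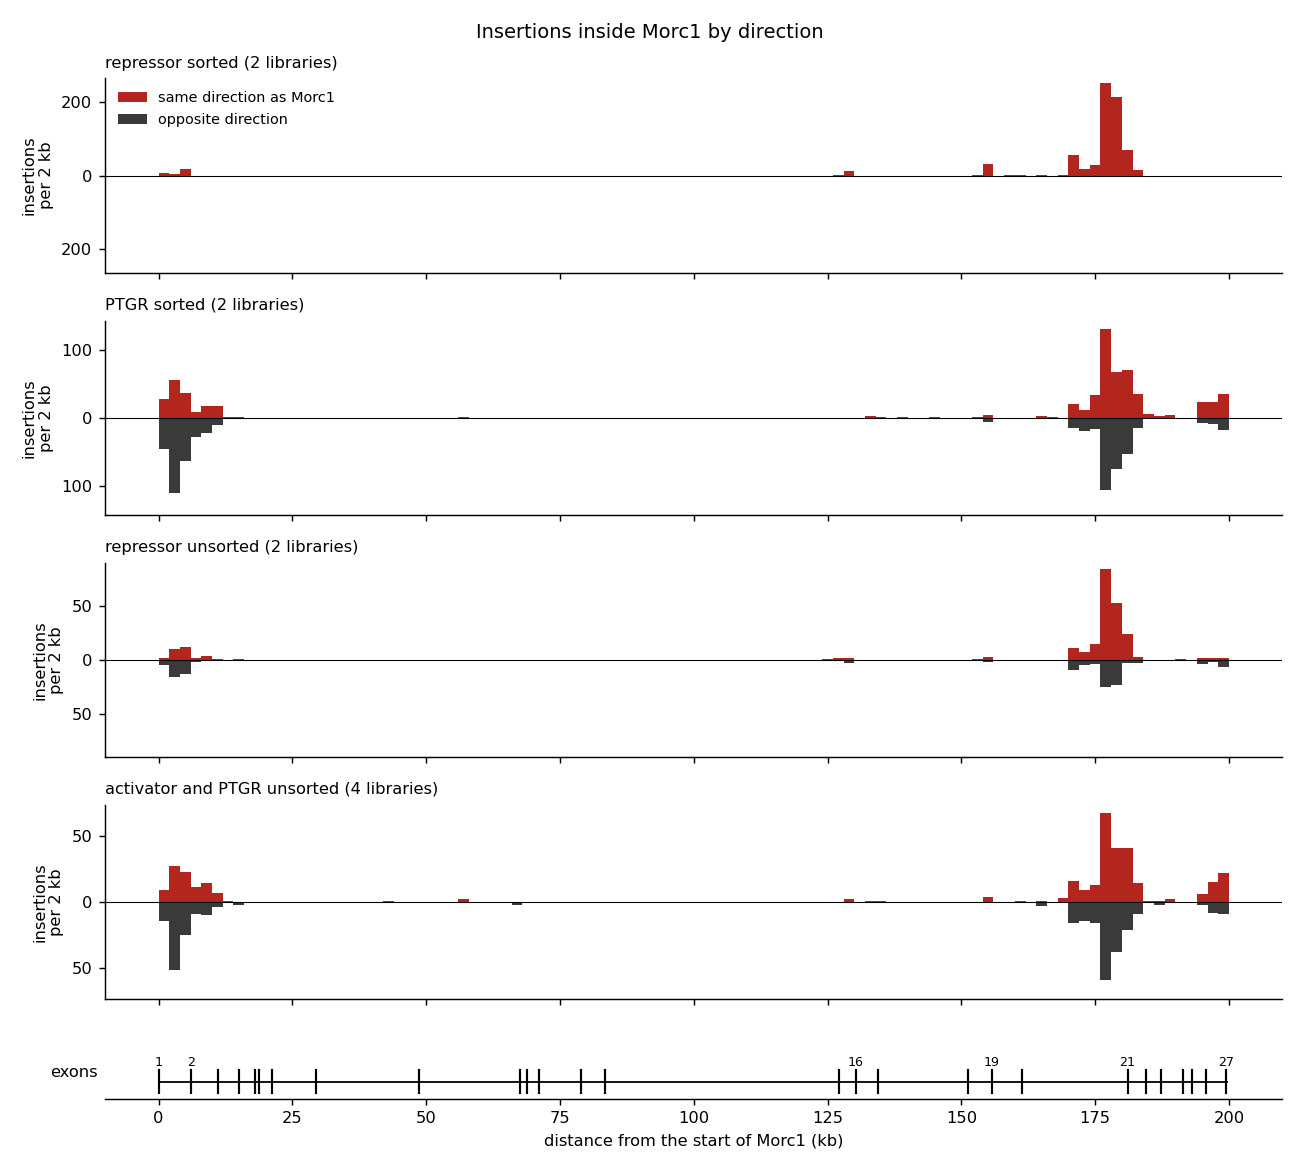
Insertions per 2 kb along Morc1 (x axis, distance in kb from the gene's start), in the direction of the gene above and in the opposite direction below the line, with exons as ticks at the bottom; each panel has its own y scale. Repressor sorted insertions lie almost all above the line, with 84.6% of these in intron 20, and PTGR sorted insertions lie on both sides at the places that unsorted cells share.

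Within Morc1 the repressor sorted libraries differed from the unsorted ones in which exon followed the insertion. Exon 21 was the assigned exon of 395 of 469 insertions (84.2%, 95% Wilson interval 80.6 to 87.2) in replicate 1 and of 226 of 268 (84.3%, 79.5 to 88.2) in replicate 2. In the activator and PTGR unsorted libraries it was that of 160 of 363 (44.1%, 39.1 to 49.2). The last exons behaved the other way round. Exons 23 to 27 were assigned 0 of 737 repressor sorted insertions, against 47 of 363 (12.9%) in these unsorted libraries. Taken as independent, the 737 allow a share of up to 0.407%. That bound is too tight, since only 620 positions were unique over the replicates. Counting positions within 10 bp once in each library left 400. Exon 27 alone, which codes for the last 35 residues, had 43 insertions in the 6 unsorted libraries, and exon 3 had 39, while neither had 1 in the repressor sorted libraries.

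Some rarely reached exons in the middle of Morc1 were hit more often than that in the repressor sorted cells. Exon 19 was assigned 33 insertions there and 8 in all 6 unsorted libraries, exon 16 had 14 against 6, and exon 20 had 5 against 0. Exons 5 to 20 together took 52 of 737 (7.06%, 5.42 to 9.14) repressor sorted insertions and 11 of 363 (3.03%, 1.70 to 5.34) in the activator and PTGR unsorted libraries. The cassette came in 3 versions for the 3 reading frames, and the lists do not record which version an insertion carried.

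The PTGR sorted libraries showed no such shift. Exon 21 was assigned 285 of 646 PTGR sorted insertions (44.1%, 40.3 to 48.0), although the replicates lay apart at 36.2% and 54.7%. Exons 2 to 4 took 26.2% of them and exons 23 to 27 took 13.8%, against 27.3% and 12.9% in the activator and PTGR unsorted libraries. The repressor unsorted libraries lay between, with 183 of 249 insertions (73.5%, 67.7 to 78.6) assigned to exon 21.

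**Figure D3:**
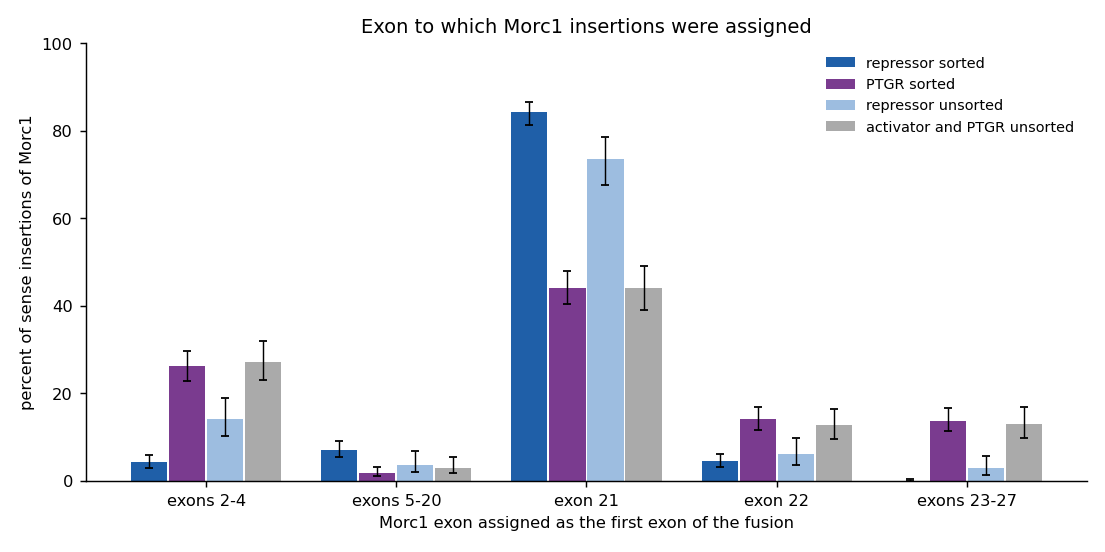
Percent of the sense insertions of Morc1 assigned to each group of exons, for the pooled repressor sorted, PTGR sorted, repressor unsorted, and activator and PTGR unsorted libraries; bars start at 0 and whiskers are 95% Wilson intervals, which cover counting error only. Exon 21 reaches 84.3% in the repressor sorted and 44.1% in the PTGR sorted libraries.

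The direction of the cassette at Morc1 was nearly uniform in the repressor sorted libraries and mixed elsewhere. Inside the annotated Morc1 gene, 466 of 469 insertions of repressor sorted replicate 1 (99.4%, 98.1 to 99.8) and 268 of 271 of replicate 2 (98.9%, 96.8 to 99.6) pointed the way Morc1 is transcribed. In the PTGR sorted libraries this share was 366 of 763 (48.0%, 44.4 to 51.5) and 275 of 511 (53.8%, 49.5 to 58.1). The 4 unsorted libraries of the activator and PTGR screens had 43.8% to 56.7%, a range that held both PTGR sorted values. The repressor unsorted libraries stood higher, with 116 of 186 (62.4%, 55.2 to 69.0) and 130 of 199 (65.3%, 58.5 to 71.6), yet well below the repressor sorted ones. The activator sorted libraries had only 6 of 12 and 2 of 4, too few to place.

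**Figure D4:**
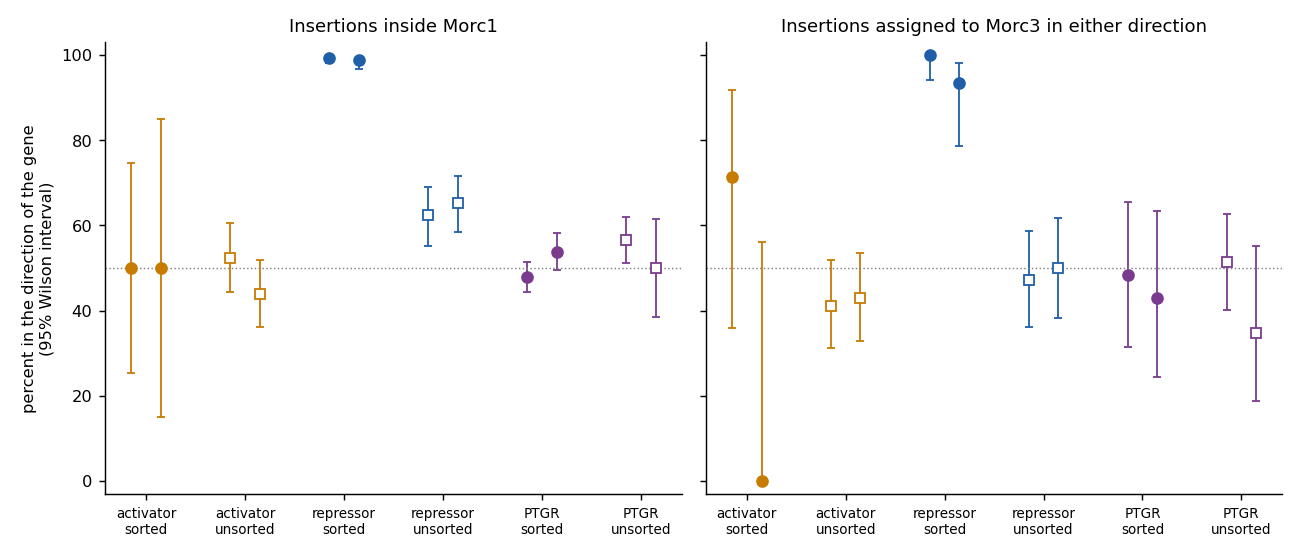
Percent of insertions in the direction of the gene for each of the 12 libraries, inside Morc1 (left) and among insertions assigned to Morc3 in either direction (right), with 95% Wilson intervals; filled circles are sorted and open squares unsorted libraries, and the dotted line marks 50%. At both genes only the repressor sorted libraries have an interval that lies wholly above 75%.

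Gm5485 was the gene to which the lists assigned the other direction. Its 545 PTGR sorted insertions (347 and 198, or 56.9 and 33.8 per 10000) lay inside Morc1 in 544 cases, and so did 399 of its 406 unsorted insertions (98.3%). Only 1 of the 406 lay within Gm5485 itself. The count of Gm5485 was thus nearly a count of cassettes that sat in Morc1 and pointed the opposite way, towards exon 2 of Gm5485 as the next annotated acceptor on that strand. In repressor sorted cells it had 3 and 3 insertions (1.35 and 1.97 per 10000) and in activator sorted cells 5 and 1 (2.87 and 0.68), against 3.33 to 5.73 in the unsorted libraries with a median of 3.51. The log2 odds ratio was 3.53 ± 0.09 in the PTGR screen (3.85 and 3.09 in the replicates), -1.31 ± 0.59 in the repressor screen and -1.09 ± 0.59 in the activator screen. Every PTGR sorted insertion was assigned to exon 2, which holds the start codon.

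The distance limit shapes the value of Gm5485. Its limit of 200 kb ends 5 bp before exon 21 of Morc1, so 89 PTGR sorted insertions further along Morc1 in the same direction were not counted for it. Of those counted, 283 of 545 (51.9%) lay within 50 kb of exon 2, with 56.2% in replicate 1 and 44.4% in replicate 2, against 162 of 406 (39.9%) in the unsorted libraries. The others lay mostly in intron 20 of Morc1, and the median distance was 190147 bp in the unsorted libraries.

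When the strand of every insertion was turned before assignment, the values of both genes changed places. In the repressor screen Gm5485 then had 449 and 255 insertions (log2 odds ratio 5.58) and was called, while Morc1 had 3 and 3 (-1.30) and was not. With turned strands, 5.61% of all genes tested were called in that screen. In the PTGR screen both were called in either direction, with 398 and 236 turned insertions for Morc1 (3.51) and 251 and 214 for Gm5485 (3.03), where 0.500% of all genes tested were called. The study flagged both among its PTGR hits as enriched for reversed insertions and advised caution. It states that such patterns could mark true positives but also false ones. Of the 62 genes called in the PTGR screen by the sense assignment, 8 (12.9%) were called in both directions, and of 192 in the repressor screen 10 (5.21%) were.

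Many positions in Morc1 recurred between libraries. The repressor sorted replicates shared 117 sense positions, 24.9% of replicate 1 and 43.7% of replicate 2, where over all genes they shared 18.2% and 26.0%. In the repressor unsorted libraries, 52 of 116 (44.8%) and 76 of 133 (57.1%) Morc1 positions were also found in repressor sorted cells, while 1.14% and 1.44% of all their positions were. Without these, 64 and 57 positions remained, beside 70 and 69 insertions in the opposite direction inside Morc1 in the same libraries. At Morc3, with 90 repressor sorted insertions against 737 at Morc1, 5 of 34 (14.7%) and 4 of 33 (12.1%) were shared this way. A gene frequent in sorted cells has more sorted positions to match, so the share over all positions is not a like baseline. The sharing at Morc1 did not follow the replicate numbers. Repressor unsorted replicate 1 shared 44 of 116 (37.9%) with sorted replicate 1 and 20 (17.2%) with sorted replicate 2. Unsorted replicate 2 shared 66 of 133 (49.6%) with sorted replicate 1 and 31 (23.3%) with sorted replicate 2. By the methods, the unsorted cells of a screen were set aside from the transduced cells before the rest were sorted, so positions can recur between them. How far this accounts for the share at Morc1 was not tested.

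Positions in Morc1 also recurred across screens, whose cells carried different tags and reporters. PTGR sorted replicate 2 shared 59 of its 276 Morc1 sense positions (21.4%) with repressor sorted replicate 1, where 0.248% of all its positions were shared. For PTGR sorted replicate 1 this was 44 of 370 (11.9%) against 0.218%. Here too the share over all positions is not a like baseline, since Morc1 was frequent in the sorted cells of both screens. In all, 118 positions were common to the repressor and PTGR sorted libraries, out of 620 unique positions in the first and 618 (19.1%) in the second. For Gm5485 the repressor sorted libraries held only 6 positions, 1 of which was also in the PTGR sorted libraries. Positions also lay close together: with positions of the same strand within 10 bp of each other counted once, Morc1 kept 54.3% of its repressor sorted and 75.7% of its PTGR sorted positions, and over all genes the sorted libraries of these screens kept 85.3% to 95.9%. A gene with many insertions in a short stretch has more of them within 10 bp of another, so the share over all genes is not a like baseline here either. The part of recurring and close positions in the counts was not tested beyond this.

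Morc3 rose in the repressor screen, where its 62 and 28 insertions stood at 27.8 and 18.4 per 10000 (23.1 ± 6.67, n = 2). The 6 unsorted libraries lay between 1.48 and 2.00 with a median of 1.80, so the groups did not overlap. The PTGR sorted libraries held 14 and 9 (2.3 and 1.54 per 10000) and the activator sorted ones 5 and 0 (2.87 and 0), values that overlapped the unsorted range. The log2 odds ratio in the repressor screen was 3.75 ± 0.19 (3.96 and 3.37 in the replicates, adjusted p = 7.94e-59 by Fisher's exact test over all genes). With the spread between replicates, edgeR gave a log2 fold change of 3.95 against the repressor unsorted libraries alone (adjusted p = 3.28e-41), where it called 2.24% of all genes tested. The change was larger in the repressor than in the PTGR screen by 3.37 on the log2 scale (edgeR interaction, adjusted p = 6.04e-08) and than in the activator screen by 4.2 (adjusted p = 1.94e-08). These comparisons were added after the data had been seen. The screens also differed in reporter and sorting, and the PTGR screen in its tag, so their changes are not on a like scale. In the PTGR and activator screens Morc3 itself gave log2 odds ratios of 0.10 (adjusted p = 0.88 by Fisher's exact test) and -0.20 (adjusted p = 1).

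Morc3 differed from Morc1 in where the insertions were found. Exon 2 was the assigned exon of 88 of 90 repressor sorted insertions (97.8%) and of 178 of 183 unsorted ones (97.3%), so a fusion would keep nearly the whole protein, ATPase domain included. Most sites lay before the gene: 79 of 90 repressor sorted and 176 of 183 unsorted insertions were upstream of its annotated start, which is 9250 bp from exon 2. Of those assigned to exon 2, repressor sorted insertions lay closer to it, with 17 of 61 (27.9%) and 14 of 27 (51.9%) within 10 kb in the replicates, against 15 of 178 (8.43%) in the unsorted libraries, and the median distance was 10390.5 bp against 15585 bp. The direction followed that of Morc1: 62 of 62 and 28 of 30 repressor sorted insertions assigned to Morc3 in either direction were in the sense direction, against 183 of 402 (45.5%, 40.7 to 50.4) in the unsorted libraries. The repressor sorted replicates shared 4 positions at Morc3, 6.45% of replicate 1, below the 18.2% for all genes.

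**Figure D5:**
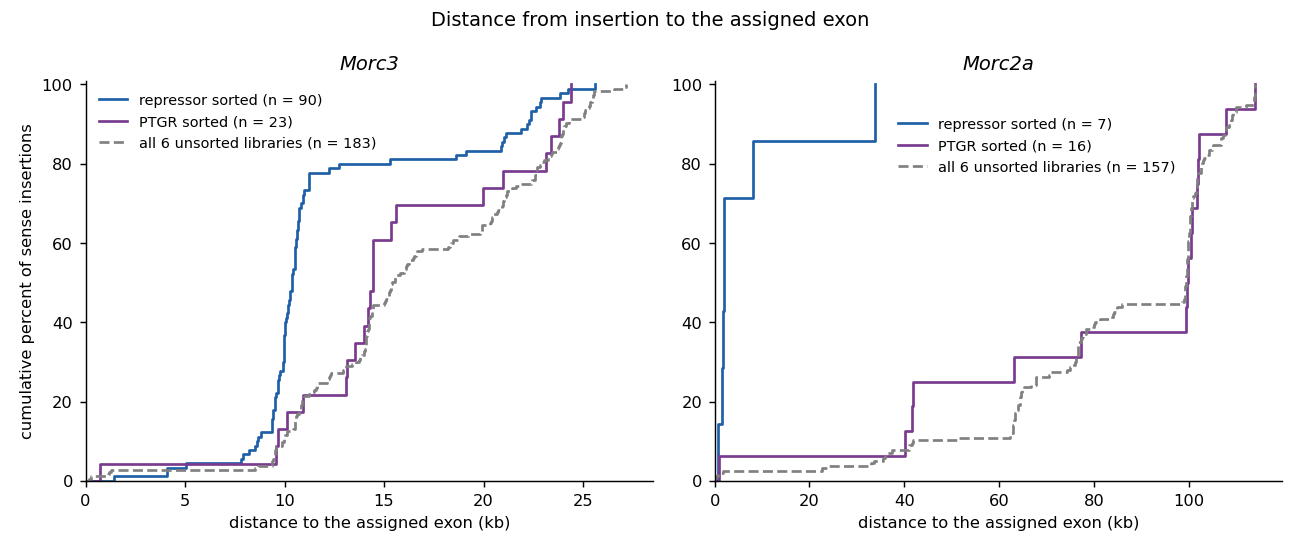
Cumulative percent of sense insertions by their distance in kb to the assigned exon for Morc3 (left) and Morc2a (right), in the pooled repressor sorted, PTGR sorted and all 6 unsorted libraries. At Morc2a all 7 repressor sorted insertions lie within 50 kb, where 16 of the 157 unsorted ones do.

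Morc2a did not pass the test in any screen at the 200 kb limit, but the position of its few repressor sorted insertions set them apart. It had 5 and 2 insertions in the repressor sorted libraries (2.25 and 1.32 per 10000), 8 and 8 in the PTGR sorted (1.31 and 1.37) and 2 and 1 in the activator sorted ones, with 1.36 to 2.03 per 10000 in the unsorted libraries. The groups overlapped in the repressor screen, where the log2 odds ratio was 0.28 ± 0.56 (adjusted p = 1 by Fisher's exact test over all genes). The test of a difference between the repressor and the PTGR screen gave 0.76 on the log2 scale (edgeR, adjusted p = 0.736). Of its 157 unsorted insertions, 16 (10.2%) were within 50 kb of the assigned exon and 4 within 10 kb, with a median of 99356 bp. Of the 7 repressor sorted insertions, all were within 50 kb and 6 within 10 kb, with a median of 1954 bp, and 1 position occurred in both replicates, so that 6 were unique.

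With a limit of 50 kb for all genes, Morc2a was called in the repressor screen with 7 insertions against 16 (log2 odds ratio 3.30 ± 0.65, adjusted p = 0.000271 by Fisher's exact test over all genes). At that limit 13.4% of all genes tested were called. The call was kept without replicate 2 (5 insertions, 3.56, adjusted p = 0.000716), whereas replicate 1 left out leaves 2 insertions, under the minimum for the test. By direction, 7 of 8 repressor sorted insertions assigned to Morc2a either way were sense (87.5%, 52.9 to 97.8), against 157 of 289 (54.3%) in the unsorted libraries.

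Morc2b and Morc4 held hardly any insertions in these mES cells. Morc2b had 1 insertion in activator sorted replicate 1 and 1 in PTGR unsorted replicate 1. Morc4 had 1 in PTGR sorted replicate 1 and 4 in the 6 unsorted libraries together. A count of 0 in the repressor sorted libraries allows up to 0.801 per 10000, above the 0.0391 of Morc4 and 0.00978 of Morc2b in all unsorted libraries. This depth could not have shown a fall, and only a very large rise could have been seen. In the unsorted libraries the members thus ran from Morc1 (median 6.47 per 10000) over Gm5485 (3.51), Morc3 (1.80) and Morc2a (1.54) down to these 2 genes. The ranges of Morc1 and Gm5485 overlapped, as did those of Morc3 and Morc2a.

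Genes of complexes and processes linked to the Morc proteins, and other GHKL ATPases, were followed as lists. Of 8 genes of the HUSH complex and SETDB1 with its partners, 6 had at least 3 repressor sorted insertions. Of these 5 were called, where 8.18% of all genes tested were. The median log2 odds ratio was 4.43 over the 6 against -0.39 over all genes tested. Genes enter the test through their sorted insertions, which favours genes that are high there, and the lists were chosen with earlier results known. Nothing is therefore read from the share called or the median of a list. Setdb1, the histone H3 lysine 9 methyltransferase, had 19 and 18 insertions (5.34, adjusted p = 3.42e-36 by Fisher's exact test over all genes). Atf7ip, its cofactor, had 284 and 276 (4.34), and Trim28, which brings SETDB1 to KRAB zinc finger proteins, had 331 and 302 (4.70). Tasor and Mphosph8, both HUSH subunits, had 9 and 17 (4.43, adjusted p = 5.17e-21) and 11 and 4 (4.43, adjusted p = 2.98e-12). Trim28 alone of these was also called in the PTGR screen (187 and 122 insertions, 1.97), by Fisher's test and DESeq2 but not by edgeR.

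Of 12 genes around PML bodies, SUMO and DAXX, 7 had at least 3 repressor sorted insertions and 4 were called (8.18% of all genes tested). Their median log2 odds ratio was 2.08 over the 7, against -0.39 over all genes tested. These 7 too entered through their sorted insertions, so the median and the share called are only a description. Among those called, Sumo2 had 128 and 97 insertions (5.70) and Sumo3 had 60 and 36 (5.74). Pml, the scaffold of the bodies in which MORC3 sits, had 54 and 38 (2.08, adjusted p = 6.17e-26 by Fisher's exact test over all genes). In the PTGR screen 10 of the 12 could be tested and 0 were called by Fisher's test, edgeR or DESeq2, with 0 at an unadjusted p below 0.05. The genes of germ cell DNA methylation around MORC1 were rarely reached: 1 of 14 had at least 3 repressor sorted and 8 had at least 3 PTGR sorted insertions. None of these 14 was called in any screen by Fisher's test, edgeR or DESeq2, and 1 had an unadjusted p below 0.05, in the PTGR screen. Of 8 other GHKL ATPases, 0 were called in any screen by the 3 tools, with 1 at an unadjusted p below 0.05 in the repressor screen. Fisher's test called 4.64%, 8.18% and 0.666% of all genes tested in the activator, repressor and PTGR screens. With so few genes tested per list, a count of 0 called is near these shares and says little.

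Over the 12 libraries, the gene whose insertions per 10000 (log2 with 0.5 added) were most like those of Morc1 was Trim28 (Pearson r = 0.972), followed by Pot1a (0.965), Dtwd1 (0.95), Gje1 (0.928) and Dmrtc1b (0.928). The last 4 had 11 to 22 insertions in all. For Gm5485 these were Pou5f1 (0.978), Mib2 (0.969), Parp14 (0.967), Cnot2 (0.962) and Ncoa5 (0.960). Like Morc1 and Gm5485, Trim28 and Pou5f1 were flagged by the study for reversed insertions in the PTGR screen. Trim28 was flagged in the repressor screen as well, where Morc1 was not called with turned strands. The points of these correlations share libraries and their depth, and they are given as a description among 12809 genes. The genes next to the pair were not called in any screen. Dppa2, on the far side of Gm5485, had 15 PTGR sorted insertions against 77 in the background (log2 odds ratio 0.74, adjusted p = 0.477 by Fisher's exact test over all genes), while Dppa4 beside it had at most 2 and Trat1, beyond the end of Morc1, at most 1 in the sorted libraries of a screen.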

How the data were processed

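Each of the 12 mES cell libraries lists mapped ORFtag insertions. Per the labels and methods, the authors trimmed reads with Trim Galore 0.6.0, used Bowtie2 for alignment to mm10 and SAMtools 1.9 to drop poorly mapped and duplicate reads, and gave every insertion the closest exon downstream, leaving out first exons. The deposited lists give each insertion's position, exon number and distance in bp, once as mapped and once with the strand turned, and no reads per insertion. The authors also deposited a table for each screen with pooled insertion counts by gene and their own odds ratios and adjusted p-values, which were not used, save for the gene names.

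Each position was counted once per library, up to 200 kb from the exon. Repeated rows made up 100% of positions in the repressor unsorted libraries and 12.7% in PTGR sorted replicate 2. Genes were tested with a one-sided Fisher's exact test (scipy 1.17.1) on summed counts, adjusted by Benjamini-Hochberg over genes with at least 3 sorted insertions, and with edgeR 4.0.16 (quasi-likelihood test) and DESeq2 1.42.0 over genes with at least 10 insertions. Fisher's test and edgeR were tested on simulated data: with 200 genes raised 8-fold in counts drawn for the repressor screen, each recovered 146, over 4001 and 7877 genes, with 0 false calls. In the real repressor screen Fisher's test covered 2346 genes. The simulated counts held no shared or close positions, so they do not measure false calls that such positions could bring. SEs, Wilson intervals and the limit for 0 (3 counts) cover counting error only, since cells of 1 clone and PCR copies are not independent. Exon positions are those of GENCODE vM21 (GRCm38), and sequences were read from the RefSeq copy of GRCm38.

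The genes, lists and tests were chosen with earlier results of these data known. All 6 members are named, with their neighbours, list genes called in any screen (apart from 1, which is not reported here), and the 5 genes most like Morc1 and like Gm5485 among those with at least 10 insertions. Alternatives were each screen's own background, edgeR without or with a block, DESeq2, other minimum counts, a 50 kb limit, listed rows and leaving out each library. Counting positions within 10 bp once, and the differences of Morc3 and Morc2a between screens, were added after seeing the data.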

Additional observations from a re-analysis of the deposited data

Results flagged for a closer look

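The change of Morc3 in sorted cells differed between screens in the edgeR interaction test, which was added after the data had been seen. The difference was 3.37 on the log2 scale between the repressor and the PTGR screen and 4.2 between the repressor and the activator screen. Among the 6 unsorted libraries, the sense insertions of Morc2a stood apart in PTGR unsorted replicate 2, at 2.03 per 10000 against 1.59 for the next library. That library was the shallowest unsorted one, with 54088 insertions, and its 11 Morc2a positions became 6 when positions within 10 bp were counted once. Chance flags about 1 in 20 such groups, and 8 were examined.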

How the results depend on the processing

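The count of called members was 0 in the activator, 2 in the repressor and 2 in the PTGR screen under each alternative, apart from the 50 kb limit in the repressor screen, where Morc2a made it 3. Leaving out each library gave 0, 2 and 2. The deviations of same-numbered sorted and unsorted libraries correlated at 0.0409 (activator), 0.0121 (repressor) and 0.236 (PTGR) across 5183 genes, so gene counts did not pair the samples in every screen. Shared positions linked same numbers in 2 screens: PTGR sorted replicate 1 shared 18.2% with unsorted replicate 1 and 0.342% with 2, PTGR sorted replicate 2 shared 6.76% with 2 and 1.79% with 1, and activator sorted replicate 2 shared 19.5% with 2 and 1.46% with 1. Both repressor sorted replicates shared more with unsorted replicate 2 (9.86% and 8.23%) than with 1 (8.17% and 5.03%). With the replicate number as a replicate block edgeR called the same counts, 0, 2 and 2, and the difference of Morc3 between screens was 3.23 against PTGR and 4.21 against activator.

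Signs turned only for values that were not called. With the 50 kb limit Morc2a gave a log2 odds ratio of 0.81 (activator) and 1.08 (PTGR). Leaving out 1 library, Morc3 gave -0.25 to 0.68 in the activator screen, the highest without activator sorted replicate 2, and -0.22 to 0.36 in the PTGR screen, the lowest without PTGR sorted replicate 1. Morc2a gave -0.22 to 0.55 in the repressor screen, the lowest without repressor sorted replicate 1. These rest on few insertions, and the cause was not tested.

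Morc1 in the repressor screen moved from 5.07 to 4.82 with the background of its own screen and to 4.50 with positions within 10 bp counted once, and in the PTGR screen from 3.18 to 2.82 with its own background. Leaving out 1 library, Morc3 kept 3.37 to 3.96 in the repressor screen. Its difference from the PTGR screen was 2.82 to 3.81, with an edgeR adjusted p of 0.0207 without PTGR unsorted replicate 1, and from the activator screen 3.39 to 10.97, the highest without activator sorted replicate 1, which leaves 0 insertions there and is no bound. Depth limited Morc2b and Morc4, which could not be tested, and the activator screen, where the members had 0 to 6 sorted insertions per library.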
